A study of Mus musculus with 4 samples.

Results

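Genes of meiosis and germ cell development were followed in mouse embryonic stem (ES) cells with and without functional Smg6. The set held 40 genes, named by symbol, and was chosen with the fold changes between these cells already known, so the values below that compare the genotypes describe the genes and test nothing. Of the 37224 Ensembl genes in the deposited tables, 39 carried a symbol of the set. The expression of Spata22 was not analysed here. Spo11 had too few reads to be tested, which left 38 tested genes, all on autosomes. RNA-seq libraries came from 2 samples of wild-type ES cells and 2 of Smg6-deficient ES cells, both labelled as embryo-derived. The labels do not name the strain, sex, passage, medium, line or clone, or the way Smg6 was inactivated. Nor do they say that replicates were grown as independent cultures, so a p-value here speaks to the spread of 4 libraries, part of which may be technical.

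In meiosis, homologous chromosomes pair and recombine before they separate. The chromosomes are first held in loops along an axis built with meiotic cohesins and HORMA-domain proteins, programmed DNA breaks are repaired by strand exchange with the homologue, and the synaptonemal complex zips the axes together. These genes are known for expression in testis and fetal ovary and are mostly kept silent in somatic tissues by promoter DNA methylation and by a Polycomb complex that contains E2f6, Mga and Max, but many are known to be transcribed at some level in ES cells, which do not undergo meiosis. Smg6 cuts mRNAs near a stop codon that is read as premature, a step of nonsense-mediated decay (NMD).

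Total counts ranged from 130888768 to 155391181 reads per library. Smg6 itself stood at 10.05 and 10.38 RPKM (reads scaled to gene length and library depth, as deposited by the authors) in wild-type and 8.88 and 8.29 RPKM in Smg6-deficient libraries, a log2 difference of -0.21 (SE 0.083; edgeR adjusted p = 0.089) that was not called, so its count over the whole gene does not check the genotype labels. ES cell markers were present in all libraries, with summed levels of 4588 to 5495 CPM (counts scaled to library depth after TMM normalization) in wild type and 3474 to 3516 CPM in Smg6-deficient cells, and 6 of 10 fell and 1 rose. On the log2 scale Nanog fell by 2.04 and Dppa5a fell by 1.14, while Utf1 rose from 180 to 354.1 CPM (log2 fold change 0.98). Pou5f1, a core pluripotency factor named after its value was seen, fell by 0.49. Of 16 endoderm markers 13 rose and 2 fell, and their sum was 644.9 and 732.2 CPM in wild type against 2598 and 3863 CPM in Smg6-deficient replicates 1 and 2. Of 12 fibroblast markers 4 rose (33.3%, against 20.5% of all tested genes), with sums of 3518 to 3714 against 4476 to 4785 CPM. Of 10 markers of the 2-cell-like state of ES cultures, 9 fell. Those 9 summed to 31.9 and 18 CPM in wild type and 6.55 and 5.26 CPM in Smg6-deficient cells, and the tenth, Eif1a, stood at 333.7 to 390.7 CPM over all 4 libraries. No fibroblast marker fell and no 2-cell-like marker rose, also at an unadjusted p of 0.05 in edgeR and with DESeq2 or limma. In these bulk samples fewer cells of a type and less RNA per cell cannot be told apart.

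Of the 38 tested genes, 20 fell and 4 rose in Smg6-deficient cells, where the threshold is a Benjamini-Hochberg adjusted p of 0.05 in edgeR's quasi-likelihood fit over all 20895 tested genes. In that fit 19.2% of all tested genes were called lower and 20.5% higher, and among autosomal genes 17.3% were called lower and 21.6% higher. Of the 1040 tested X-linked genes 56.7% were called lower and 3.56% higher. Their median log2 fold change was -0.76, against 0.03 for autosomal genes. A fall of at least 2-fold was called for 14 of the 38, against 8.03% of all tested genes. The Smg6-deficient libraries both lay below both wild-type libraries for 25 of the 38 genes (35.9% of all tested genes) and both above for 9 (37.3%), and the groups overlapped for 4, all by CPM. The median log2 fold change was -0.67, against 0.01 over all tested genes. The set was picked from this contrast, so these shares show how it was composed and carry no weight of their own.

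**Figure D1:**
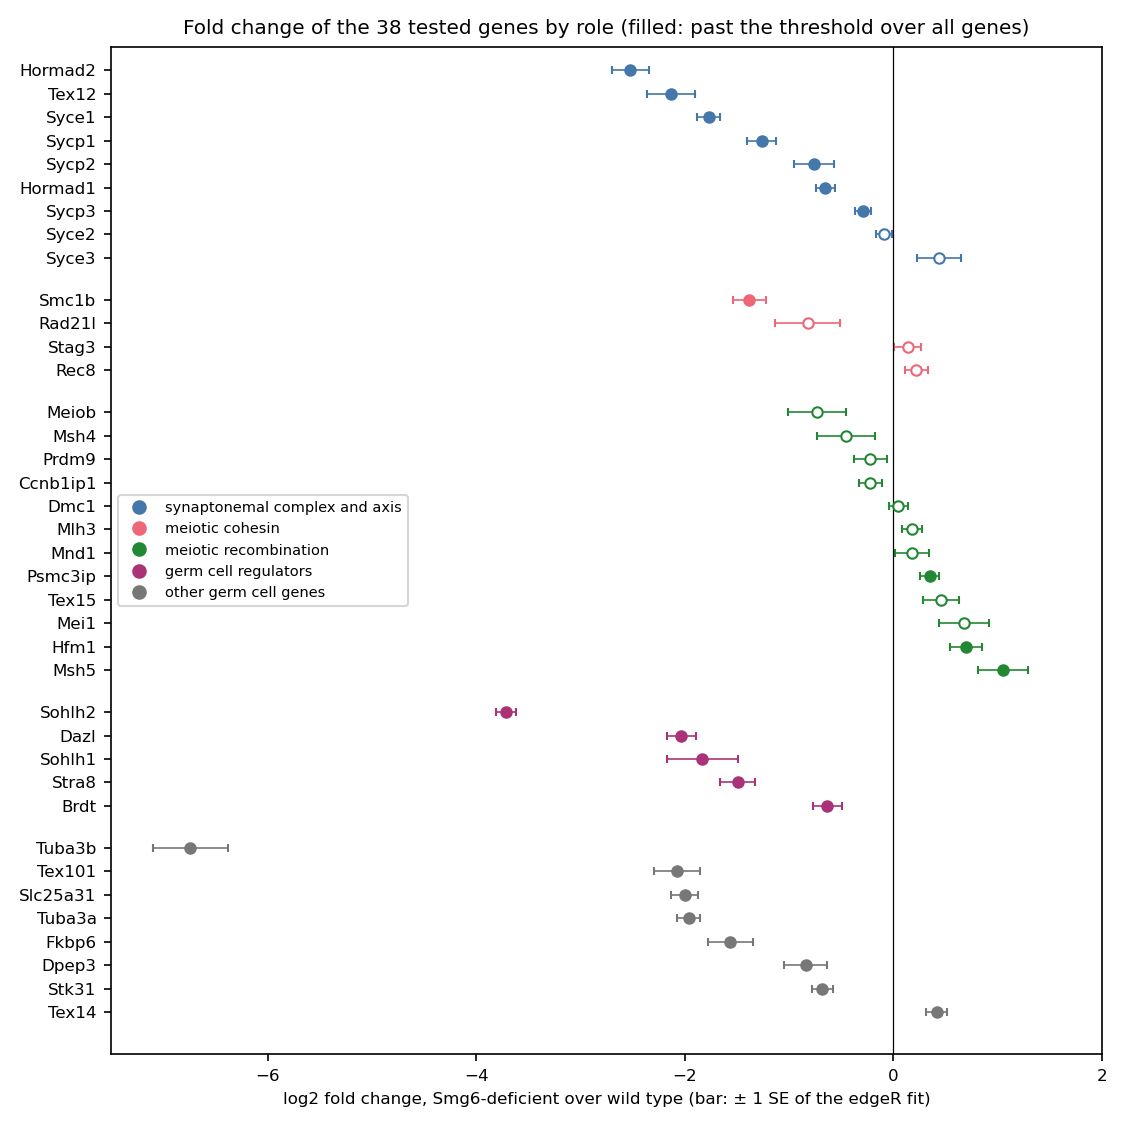
Log2 fold change of each tested gene, Smg6-deficient over wild type, with bars of 1 standard error from the edgeR fit and filled points for genes past the threshold over all tested genes. The synaptonemal and germ cell regulator genes lie mostly left of 0, down to -3.71 for Sohlh2, and the recombination genes lie between -0.73 and 1.05.

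By role the genes differed in this description. Synaptonemal complex and axis genes had 7 of 9 lower and 0 higher (median log2 fold change -0.76). Meiotic cohesins had 1 of 4 lower (25%, near the 19.2% of all tested genes), with a median of -0.34. Recombination genes had 0 of 12 lower and 3 higher (25%, near the 20.5% of all tested genes), with a median of 0.18. Germ cell regulators had 5 of 5 lower (-1.83), and the other germ cell genes 7 of 8 lower and 1 higher (-1.76). Summed over each role, germ cell regulators went from 210.6 and 219.7 CPM in wild type to 34.2 and 40 CPM in Smg6-deficient replicates 1 and 2. Recombination genes summed to 211.5 and 249.2 CPM in wild type and 268.8 and 291.1 CPM in Smg6-deficient cells. Tex15, which was not called, made up 68.7 and 97.8 CPM of this in wild type and 104.6 and 125.1 CPM in Smg6-deficient cells. At an unadjusted p of 0.05 in edgeR, 1 recombination gene (Meiob) was lower, and no synaptonemal, cohesin or regulator gene was higher; DESeq2 and limma called none of these. The difference between roles was not tested, because the genes were chosen from the same contrast.

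**Figure D2:**
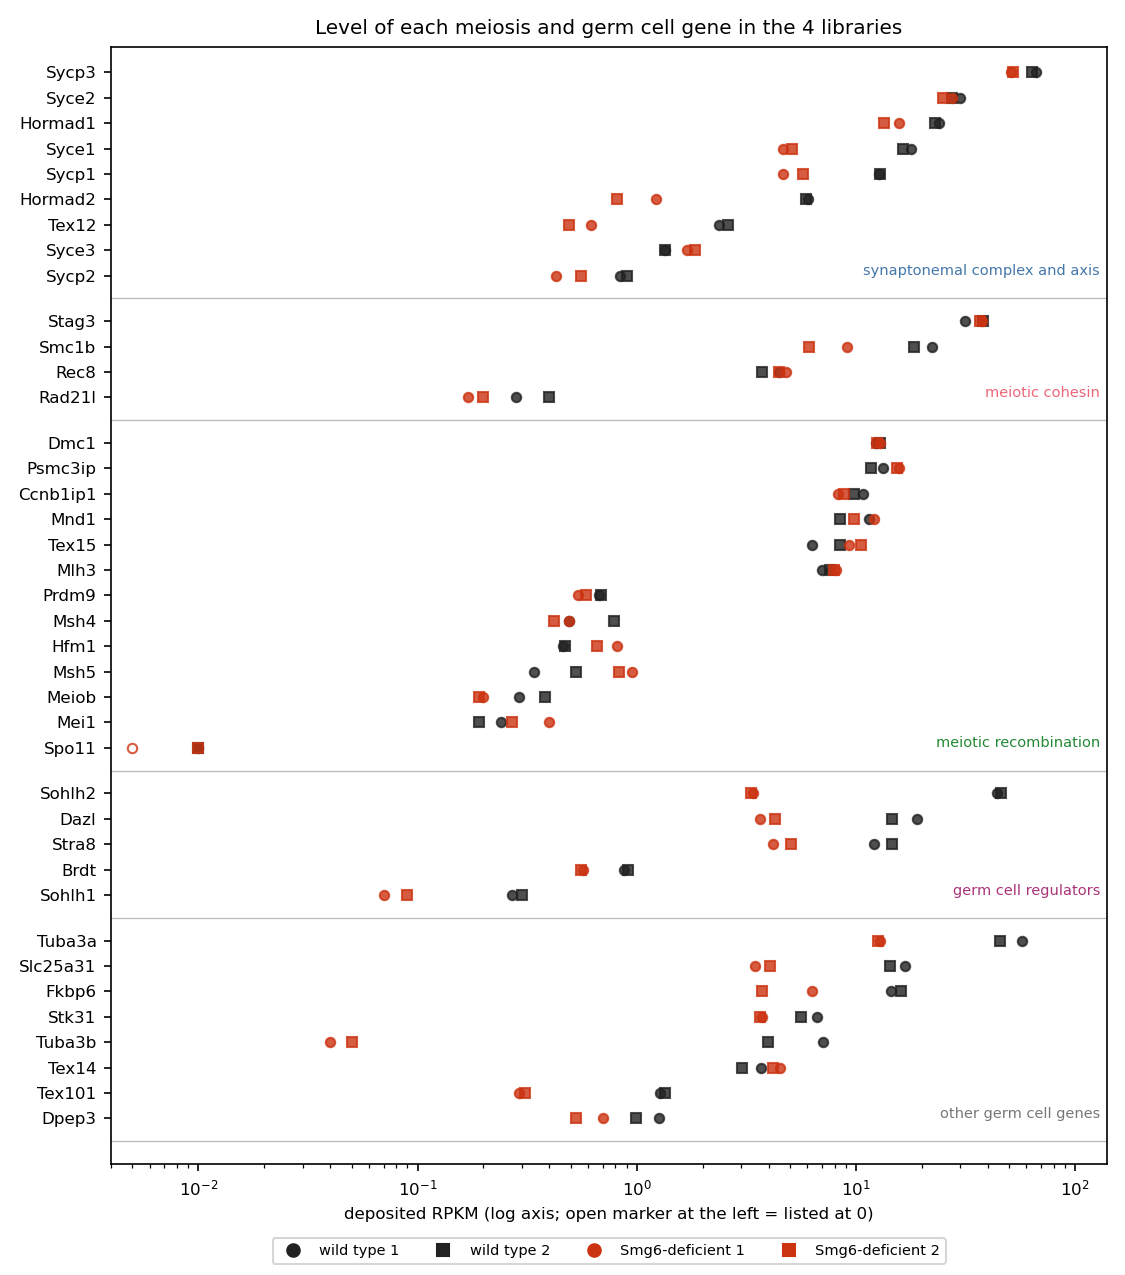
Deposited RPKM of each gene in the 4 libraries on a log axis, ordered within each role by wild-type level, with wild-type libraries in black and Smg6-deficient libraries in red. Sycp3 is the most abundant at 64 to 66.73 RPKM in wild type, Sohlh2 drops from over 44 to about 3.4 RPKM, and Dmc1 stays between 12.42 and 12.91 RPKM in all 4 libraries.

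Many of these genes were well expressed in wild-type ES cells: 27 of 39 reached at least 1 RPKM in both wild-type libraries and 15 reached at least 10 RPKM. In Smg6-deficient cells 7 reached 10 RPKM in both libraries. The highest wild-type levels per length were those of Sycp3, Tuba3a, Sohlh2, Stag3 and Syce2, with means of 65.4, 51.2, 45.2, 34.8 and 28.7 RPKM. In Smg6-deficient cells Sohlh2 ranked 22nd of 39 instead of the third, and Tuba3b 38th instead of 22nd. Psmc3ip moved from rank 15 to rank 4 and Dmc1 from rank 14 to rank 7.

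The promoters of the set were described by features that did not enter its choice. RefSeq promoter windows (GRCm38.p6, 250 bases before to 50 after a start) were found for 37 of the 40 listed genes, 44 windows in all, and none for Meiob, Tex15 and Spo11. The median ratio of observed to expected CpG was 0.70, against 0.38 over all 32851 windows in the table. The hexamer CACGTG, the E-box recognised by Max and its partners, was present in 31.8% of the 44 windows and in 7.15% of all windows. The heptamer GCGGGAA, a core of sites of the E2F family, searched on both strands, was also present in 31.8%, against 4.60% of all windows. Both motifs together were found in 15.9% of the windows, from 6 genes, against 0.457% of all windows. Among windows with a CpG ratio of at least 0.6, a restriction chosen after the values were seen, the shares were 44.8% for each motif and 24.1% for both in the set, against 11.3%, 10% and 1.12% of all such windows. A match in a window is a description of its letters, and the factors' binding was not measured.

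**Figure D3:**
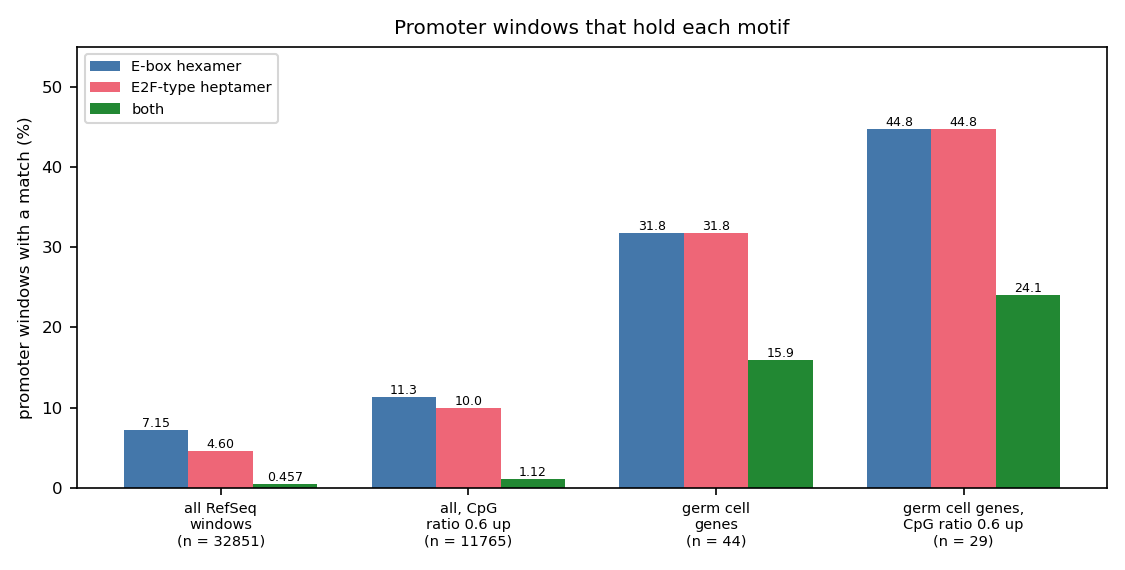
Percent of RefSeq promoter windows that hold the E-box hexamer, the E2F-type heptamer or both, for all windows and for the windows of the germ cell genes, with and without restriction to a CpG ratio of at least 0.6. The windows of the germ cell genes hold each motif in 31.8% of cases, against 7.15% and 4.60% of all windows.

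By role, CACGTG was found for 5 of 9 synaptonemal genes, 1 of 4 cohesins, 2 of 5 regulators and 3 of 8 other germ cell genes, and for 0 of 11 recombination genes with a window. GCGGGAA was found for 4, 2, 0, 4 and 3 of these genes in the same order, 1 of the last 3 being Spata22. The genes with CACGTG made up 9 of the 20 genes called lower and 2 of the 16 other tested genes with a window, while those with GCGGGAA made up 7 of 20 and 5 of 16. These counts rest on the contrast that chose the genes and were not tested.

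Synaptonemal complex and axis genes were lower in most members. The stretches before a RefSeq start of Hormad1, Sycp3, Tex12 and Syce2 are shown because both motifs lie in each, the matches being in capitals (TTCCCGC is the heptamer on the other strand). They cover chr3:95559567-95559676 (plus strand) for Hormad1, chr10:88459425-88459564 (plus) for Sycp3, chr9:50561341-50561428 (minus) for Tex12 and chr8:84872155-84872245 (plus) for Syce2, and are written 5′ to 3′ along the gene. The stretch of Syce2 lies inside the gene as annotated by GENCODE, which starts at 84872111. The other RefSeq window of Syce2, chr8:84871861-84872160, holds neither motif.
Hormad1: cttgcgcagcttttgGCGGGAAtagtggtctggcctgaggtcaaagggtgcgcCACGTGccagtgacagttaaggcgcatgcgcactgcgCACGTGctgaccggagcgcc
Sycp3: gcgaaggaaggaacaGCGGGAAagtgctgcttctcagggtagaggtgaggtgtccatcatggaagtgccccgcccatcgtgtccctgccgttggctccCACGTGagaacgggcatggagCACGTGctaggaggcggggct
Tex12: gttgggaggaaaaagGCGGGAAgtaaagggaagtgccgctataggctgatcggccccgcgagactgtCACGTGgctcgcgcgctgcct
Syce2: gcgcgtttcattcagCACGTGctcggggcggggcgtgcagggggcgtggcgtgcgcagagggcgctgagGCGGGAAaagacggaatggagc

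Hormad2 (ENSMUSG00000020419, chromosome 11, 4345814 to 4441105), an axis protein that marks unsynapsed chromosomes, stood at 6.06 and 5.94 RPKM in wild type and 1.22 and 0.81 RPKM in Smg6-deficient replicates 1 and 2, a log2 fold change of -2.52 (SE 0.18). Its paralogue Hormad1 stood at 24.05 and 23.05 RPKM in wild type and 15.7 and 13.41 RPKM in Smg6-deficient cells (-0.65, SE 0.09). The groups did not overlap for either gene, and Hormad2 lost the larger share of its level. The sequence of Hormad1 is shared in part with Gm15529, a pseudogene that holds 21.4% of the 50-base stretches of its transcripts (the length of the reads). Gm15529 was counted at 26.9 and 24.55 RPKM in wild type and 17.98 and 15.29 RPKM in Smg6-deficient cells. How reads that align to several places were treated is not known, so the values of Hormad1 may include reads of the pseudogene.

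Of the transverse filament and central element, Sycp1, the filament that spans the complex, stood at 12.8 and 12.9 RPKM in wild type and 4.64 and 5.74 RPKM in Smg6-deficient cells (log2 fold change -1.26, SE 0.14). Syce1, a central element protein, stood at 17.9 and 16.42 RPKM against 4.65 and 5.1 RPKM (-1.77, SE 0.11). Tex12, which partners with Syce2 in the central element, stood at 2.37 and 2.62 RPKM against 0.62 and 0.49 RPKM (-2.13, SE 0.23). The groups were apart for each of these 3 genes. The log2 CPM ratio of Smg6-deficient replicate 2 over replicate 1 was 0.38 for Sycp1, 0.21 for Syce1 and -0.27 for Tex12. Syce2 did not follow its partner, at 29.94 and 27.5 RPKM in wild type and 27.41 and 25.05 RPKM in Smg6-deficient cells (-0.09, SE 0.077, not past the threshold). Both motifs lie in the Syce2 window at chr8:84872008-84872307, as in that of Tex12, and neither lies in its other window. Syce3, the remaining central element gene of the set, was low in all libraries, at 1.34 and 1.35 RPKM in wild type and 1.7 and 1.84 RPKM in Smg6-deficient cells, and was not called (log2 fold change 0.44, SE 0.21).

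Sycp3, a lateral element protein and the most abundant gene of the set, fell least among the 7, from 66.73 and 64 RPKM to 51.17 and 52.06 RPKM (log2 fold change -0.29, SE 0.08). Its exons overlap those of Chpt1 on the opposite strand over 52.2% of their length, the libraries did not mark strand, and Chpt1 also fell by 0.44 on the log2 scale. The call of Sycp3 was lost without either Smg6-deficient replicate (log2 fold change -0.24 without replicate 1 and -0.35 without replicate 2). Sycp2, the other lateral element gene, stood at 0.84 and 0.9 RPKM against 0.43 and 0.56 RPKM (-0.76, SE 0.19), and its call was lost without Smg6-deficient replicate 1 (-0.55).

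Among the meiotic cohesin subunits only Smc1b was called. Smc1b (ENSMUSG00000022432, chromosome 15, 85064689 to 85131964), the meiotic form of the SMC1 arm of the ring, stood at 22.18 and 18.51 RPKM in wild type and 9.08 and 6.12 RPKM in Smg6-deficient cells (log2 fold change -1.38, SE 0.16). The only match in its promoter is a heptamer shown here with its flanks (chr15:85131984-85132020, minus strand, heptamer in capitals on the opposite strand).
Smc1b: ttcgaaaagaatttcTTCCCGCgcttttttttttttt

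Stag3, the meiotic form of the subunit that docks on the ring, was high in all libraries, at 31.5 and 38.02 RPKM in wild type and 37.56 and 36.9 RPKM in Smg6-deficient cells (log2 fold change 0.14, SE 0.13). The groups overlapped, with both Smg6-deficient values between the wild-type ones, and the gene was called higher without wild-type replicate 2 (0.31). Rec8, a meiotic kleisin that closes the ring, stood at 4.46 and 3.74 RPKM against 4.78 and 4.48 RPKM (0.22, SE 0.11), and passed without wild-type replicate 1 (0.31). Rad21l, the other meiotic kleisin, was scarce at 0.28 and 0.4 RPKM against 0.17 and 0.2 RPKM (-0.82, SE 0.31), from 51 to 106 reads per library, and passed without wild-type replicate 1 (-1.09).

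None of the 12 tested recombination genes, which act from break formation to crossover, was called lower. Spo11, the nuclease that makes the breaks, had 4 and 5 reads in wild type and 0 and 4 in Smg6-deficient cells, near the 3 reads that a count of 0 allows. Mei1, needed for break formation, stood at 0.24 and 0.19 RPKM against 0.4 and 0.27 RPKM (log2 fold change 0.68, SE 0.24, not past the threshold, but past it at 0.81 without wild-type replicate 1). Prdm9, the methyltransferase that places the breaks, stood at 0.67 and 0.69 RPKM against 0.54 and 0.59 RPKM (-0.22, SE 0.16). These 3 genes were low in both genotypes.

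The strand exchange genes were expressed in both genotypes. Dmc1, the meiotic recombinase, stood at 12.42 and 12.9 RPKM in wild type and 12.91 and 12.47 RPKM in Smg6-deficient cells (log2 fold change 0.05, SE 0.092). Psmc3ip (Hop2), which with Mnd1 forms its accessory heterodimer, rose from 13.32 and 11.77 RPKM to 15.68 and 15.37 RPKM (0.35, SE 0.088). Mnd1 stood at 11.53 and 8.43 RPKM against 12.11 and 9.79 RPKM (0.18, SE 0.16), with overlapping groups, and passed without wild-type replicate 1 (0.38). The call of Psmc3ip was lost without either Smg6-deficient replicate (0.38 and 0.33) and with limma-trend at a pseudocount of 0.1 or 1 RPKM (0.31 and 0.29). Of the 50-base stretches of Mnd1, 40.8% also lie in the pseudogene Mnd1-ps, which was counted at 15.78 and 12.16 RPKM in wild type against 17.49 and 14.64 RPKM, so Mnd1 may likewise hold its reads, and 21.2% of the exon length of Psmc3ip overlaps Mlx on the opposite strand, whose log2 fold change was 0.03.

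Tex15, which is needed to load recombinases on breaks in spermatocytes, stood at 6.34 and 8.48 RPKM in wild type and 9.32 and 10.57 RPKM in Smg6-deficient cells (log2 fold change 0.46, SE 0.17). It was not called, but passed with all 4 libraries in the DESeq2 Wald test (0.46), and in edgeR without wild-type replicate 2 (0.72) or Smg6-deficient replicate 1 (0.59). Meiob, a single-strand binding protein, stood at 0.29 and 0.38 RPKM against 0.2 and 0.19 RPKM (-0.73, SE 0.28), and passed without wild-type replicate 1 (-0.95).

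Among the genes that turn repair intermediates into crossovers, Msh5, a MutS homologue that stabilises them, rose from 0.34 and 0.53 RPKM to 0.95 and 0.83 RPKM (log2 fold change 1.05, SE 0.24), and the helicase gene Hfm1 rose from 0.46 and 0.47 RPKM to 0.81 and 0.66 RPKM (0.70, SE 0.15). Msh4, with which Msh5 forms a heterodimer, stood at 0.49 and 0.79 RPKM against 0.49 and 0.42 RPKM (-0.45, SE 0.28), with overlapping groups. Msh4 was not called, so a difference in direction from Msh5 was not shown. By CPM its wild-type replicate 1 (1.82) lay between the Smg6-deficient replicates (1.92 and 1.71), while wild-type replicate 2 stood at 3.16. Without wild-type replicate 1 the log2 fold change of Msh4 was -0.79. Mlh3, a MutL homologue that resolves crossovers and is also used in somatic repair, stood at 7 and 7.59 RPKM against 8.13 and 7.96 RPKM (0.18, SE 0.096; past the threshold at 0.27 without wild-type replicate 2). Ccnb1ip1 (Hei10), a crossover ligase, stood at 10.75 and 9.8 RPKM against 8.27 and 8.83 RPKM (-0.22, SE 0.11), and 184 of its 1833 50-base stretches are shared with Rpph1, the RNA of RNase P, which overlaps it. The call of Hfm1 was lost without Smg6-deficient replicate 1 (0.58) and with limma-trend on log2(RPKM + 0.1) (0.56).

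The regulators of the germ cell programme all fell. Sohlh2 (ENSMUSG00000027794, chromosome 3, 55182028 to 55209957), a helix-loop-helix factor of early spermatogonia and oocytes, fell from 44.28 and 46.15 RPKM to 3.39 and 3.33 RPKM (log2 fold change -3.71, SE 0.097, a 13.1-fold lower level). Its partner Sohlh1 was scarce throughout, at 0.27 and 0.3 RPKM in wild type and 0.07 and 0.09 RPKM in Smg6-deficient cells (-1.83, SE 0.34), from 54 and 62 against 15 and 19 reads. Sohlh2 thus fell from one of the highest levels of the set, and the replicates of each group lay close together. The call of Sohlh1 was lost without Smg6-deficient replicate 1 (-1.59).

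The promoter window of Sohlh1 holds 3 copies of CACGTG, shown in capitals over chr2:25847420-25847494 (minus strand), while that of Sohlh2 holds neither motif.
Sohlh1: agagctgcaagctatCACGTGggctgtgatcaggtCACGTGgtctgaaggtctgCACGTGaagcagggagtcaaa

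Dazl (ENSMUSG00000010592, chromosome 17, 50279395 to 50293636), an RNA-binding protein that licenses germ cells for gametogenesis, fell from 18.93 and 14.56 RPKM to 3.67 and 4.26 RPKM (log2 fold change -2.03, SE 0.14). Stra8, the retinoic acid-induced factor at the entry to meiosis, fell from 12.1 and 14.59 RPKM to 4.2 and 5.04 RPKM (-1.49, SE 0.17). Brdt, a bromodomain protein of spermatocytes and spermatids, fell from 0.88 and 0.91 RPKM to 0.57 and 0.56 RPKM (-0.63, SE 0.14), but its call was lost without either Smg6-deficient replicate (-0.59 and -0.66). For each of the 5 regulators both Smg6-deficient libraries lay below both wild-type libraries.

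Of the other germ cell genes, the alpha-tubulin genes Tuba3a and Tuba3b encode testis-enriched tubulins. Tuba3b (ENSMUSG00000067338, chromosome 6, 145615757 to 145621479) had 1976 and 1128 reads in wild type and 14 and 16 in Smg6-deficient cells, or 7.06 and 3.96 RPKM against 0.04 and 0.05 RPKM (log2 fold change -6.74, SE 0.36). Tuba3a, on the same chromosome (125278274 to 125286042), fell from 57.2 and 45.29 RPKM to 12.83 and 12.64 RPKM (-1.96, SE 0.11). Of the 50-base stretches of Tuba3b, 27.4% are identical in Tuba3a, and 32.4% of those of Tuba3a in Tuba3b, so reads can be exchanged between them. Their RefSeq promoter windows are alike around the heptamer, with 34 of 37 bases equal over the stretches shown (chr6:125286180-125286216, minus strand, and chr6:145615841-145615877, plus strand; the heptamer on the opposite strand is in capitals). The stretch of Tuba3b lies before the RefSeq start, but inside the gene as annotated by GENCODE, which starts at 145615757.
Tuba3a: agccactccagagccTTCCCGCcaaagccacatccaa
Tuba3b: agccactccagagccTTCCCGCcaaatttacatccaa

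Slc25a31 (Ant4), the germ cell ADP/ATP carrier, fell from 16.85 and 14.33 RPKM to 3.48 and 4.07 RPKM (log2 fold change -2.0, SE 0.13). Tex101, a surface glycoprotein of germ cells, fell from 1.28 and 1.35 RPKM to 0.29 and 0.31 RPKM (-2.07, SE 0.22). Fkbp6, an immunophilin of the piRNA pathway that also locates to the synaptonemal complex, fell from 14.49 and 16 RPKM to 6.31 and 3.75 RPKM (-1.56, SE 0.22). The Smg6-deficient replicates of Fkbp6 stood further apart than those of any other gene that fell, with a log2 CPM ratio of -0.67 for replicate 2 over replicate 1.

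Stk31, a germ cell kinase-like gene, fell by 0.68 (SE 0.1) and Dpep3, a membrane dipeptidase of testis, fell by 0.84 (SE 0.21) on the log2 scale. The call of Dpep3 was lost without either Smg6-deficient replicate (log2 fold change -1.01 and -0.69) and with limma-trend on log2(RPKM + 0.1) (-0.78). Tex14, a protein of the bridges between germ cells, was the exception and rose from 3.68 and 3.04 RPKM to 4.49 and 4.2 RPKM (0.42, SE 0.1), a call that was lost without either Smg6-deficient replicate (0.41 and 0.43). With limma-trend at a pseudocount of 0.1 or 1 RPKM it was lost too (0.37 and 0.30).

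Of the 20 genes called lower, 15 were also called lower under each of the 11 alternatives: Dazl, Fkbp6, Hormad1, Hormad2, Slc25a31, Smc1b, Sohlh2, Stk31, Stra8, Syce1, Sycp1, Tex101, Tex12, Tuba3a and Tuba3b.

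Marker lists that moved with the genotype were also compared between replicates. In Smg6-deficient cells endoderm markers were higher in replicate 2 than in replicate 1 for 14 of 16 (median log2 ratio 0.71), and the summed CPM of the set was 899.6 in replicate 1 and 929.5 in replicate 2 (median log2 ratio 0.05 over the tested genes). In wild type the sum was 1268 and 1342 CPM (median 0.10). Among the 20 genes called lower, 14 were higher in Smg6-deficient replicate 2 than in replicate 1, with log2 ratios from -0.67 to 0.52. By role the median log2 ratio in Smg6-deficient cells ranged from 0.00 (recombination genes) to 0.29 (germ cell regulators). The median log2 ratios of replicate 2 over 1 in wild type were -0.26 for endoderm, -0.27 for ES cell, -0.46 for fibroblast and -0.81 for 2-cell-like markers. The part of the endoderm, 2-cell-like and pluripotency markers, and of the lower X-linked genes, in the difference between genotypes was not tested.

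**Figure D4:**
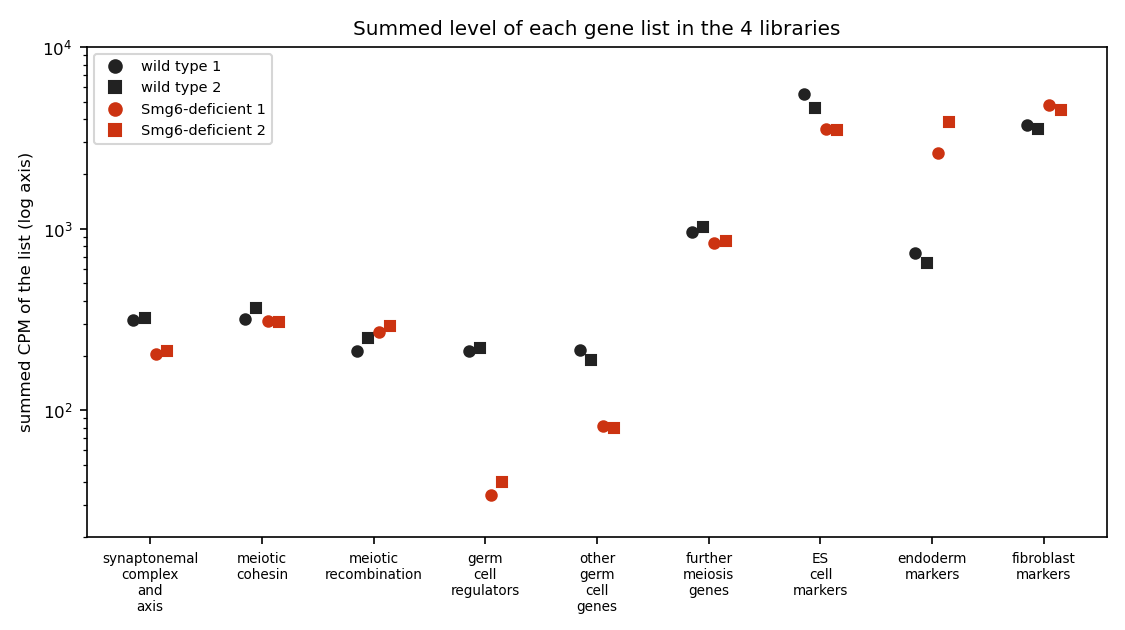
Summed CPM of each role of the set, of further meiosis genes and of marker lists in the 4 libraries, on a log axis. Endoderm markers differ between the Smg6-deficient replicates, at 2598 and 3863 CPM, while the germ cell regulators lie at 34.2 and 40 CPM there and above 210 CPM in wild type.

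Markers of advanced or other germ cell states gave the context. The protamine genes Prm1 and Prm2, the transition protein gene Tnp1 and Nanos2 were at or near 0, none above 0.08 CPM on average in a group and too low to test. Of the 14 tested germ cell identity markers, 7 fell (50%, against 19.2% of all tested genes) and 0 rose (0 also at an unadjusted p of 0.05 in edgeR and with DESeq2 or limma), with sums of 648.5 and 780.5 CPM in wild type and 569.7 and 607.5 CPM in Smg6-deficient cells. Much of each sum was Sall4, also an ES cell marker and named after its values were seen. It stood at 420.6 and 352.5 CPM in wild type and 405.3 and 382.2 CPM in Smg6-deficient replicates 1 and 2 (log2 fold change 0.03, not called). Kit, a receptor of primordial germ cells, fell by 1.30 on the log2 scale (edgeR adjusted p = 0.00029), Prdm1 fell by 1.87 (edgeR adjusted p = 0.00062) and Prdm14, a germ cell specification and pluripotency factor, fell by 2.08 (edgeR adjusted p = 0.00081). Of 7 tested markers of Sertoli and Leydig cells 2 rose (28.6%) and 1 fell (14.3%), against 20.5% and 19.2% of all tested genes. Gata4, which is also an endoderm marker, and Wt1 rose (log2 3.97 and 2.06), and Amh fell by 1.08.

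Further meiosis genes, listed by function outside the set, were tested in the same fit. Of 32, 13 fell and 5 rose, or 40.6% and 15.6%, against 19.2% and 20.5% of all tested genes, with a median log2 fold change of -0.25. That list was also drawn up with earlier results of these data known. Rec114, a partner of Spo11 in break formation, fell from 21.1 ± 0.13 to 7.12 ± 1.19 CPM (SD, n = 2; log2 fold change -1.57, edgeR adjusted p = 0.00049). Terb2 and Majin, which with Terb1 tie telomeres to the nuclear envelope, fell by 1.08 (edgeR adjusted p = 0.00093) and 1.62 (edgeR adjusted p = 0.00095) on the log2 scale. Named after their values were seen, Terb1 and the envelope protein Sun1 fell by 0.60 and 0.62, while the 5 that rose were Ccdc36 (Iho1, 1.07), Spdya (1.07), Ccdc155 (Kash5, 1.03), Mcm9 (0.50) and Hspa2 (0.49). Break formation and telomere attachment thus each held genes that moved in opposite directions: Rec114 fell and Ccdc36 rose, and the Terb1, Terb2, Majin and Sun1 genes fell while Ccdc155 rose. Without Smg6-deficient replicate 1, 3 of the list rose.

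Somatic relatives of the set were set beside it. Of 19, 5 rose and 4 fell, or 26.3% and 21.1%, near the 20.5% and 19.2% of all tested genes, with a median log2 fold change of -0.13. Of the 4 that fell, 3 (Smc1a, Stag2 and Slc25a5) are on the X chromosome, where 590 of 1040 tested genes were lower. Without wild-type replicate 2, 9 were called lower, and without Smg6-deficient replicate 2, 2 were. Smc1b made up 30.5% and 26.2% of the summed RPKM of Smc1b and its somatic counterpart Smc1a in wild type and 19.8% and 15.1% in Smg6-deficient cells, although Smc1a itself fell by 0.48 on the log2 scale (edgeR adjusted p = 0.0054). Stag3 made up 76% to 79.8% of the pair with Stag1 in all 4 libraries, but went from 59% and 60.8% to 71.9% and 71.8% of the pair with Stag2, which fell by 0.63 on the log2 scale (edgeR adjusted p = 0.0042). Rec8 stood at 3.03% to 4.2% of its pair with Rad21, the mitotic kleisin, which was not called (log2 fold change -0.21, edgeR adjusted p = 0.086).

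**Figure D5:**
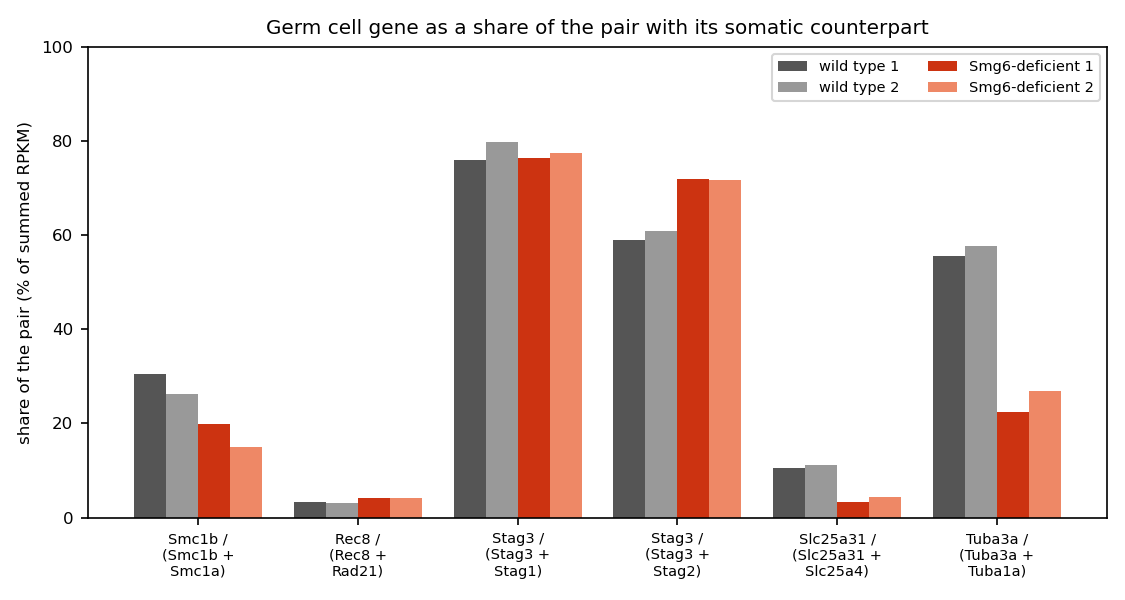
Each germ cell gene as a percent of the summed RPKM of the pair with 1 somatic counterpart, by library. The shares of Smc1b, Slc25a31 and Tuba3a are lower in both Smg6-deficient libraries, that of Stag3 with Stag1 lies between 76% and 79.8% in all 4, and that of Stag3 with Stag2 is higher in both Smg6-deficient libraries.

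Slc25a31 went from 10.5% and 11.2% to 3.42% and 4.34% of its pair with Slc25a4. Slc25a4 was itself lower (log2 fold change -0.40, edgeR adjusted p = 0.023). With Slc25a5 (log2 fold change -1.33) the share of Slc25a31 went from 5.69% and 6.15% to 3.33% and 4.32%. Tuba3a went from 55.6% and 57.8% to 22.4% and 27% of its pair with Tuba1a, which had a log2 fold change of 0.04 (edgeR adjusted p = 0.84). Brd2, a ubiquitous relative of Brdt, rose by 0.96 on the log2 scale (edgeR adjusted p = 0.00042), opposite in sign to Brdt.

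Of 24 genes of the pathways that methylate DNA or silence germ line genes in ES cells, among them the demethylases Tet1 and Tet2, 7 rose, 2 fell and 15 were not called, with a median of 0.19. These are 29.2% higher and 8.33% lower, against 20.5% and 19.2% of all tested genes. Without the demethylases 6 of 22 rose and 2 fell. Dnmt3b and Dnmt3a, which methylate DNA de novo, rose by 1.58 and 1.26 (edgeR adjusted p = 0.00056 and 0.00037), and Ehmt2 (G9a), a histone H3 lysine 9 methyltransferase, rose by 1.02 (edgeR adjusted p = 0.00036). The 2 that fell were Rnf2, the ubiquitin ligase shared by Polycomb complexes, by 0.55, and Rybp, by 0.26 on the log2 scale. Of the components that read the motifs above, named after their values were seen, E2f6 had a log2 fold change of -0.02 (edgeR adjusted p = 0.9), Max -0.20 (edgeR adjusted p = 0.09) and Mga 0.33 (edgeR adjusted p = 0.22), the last with 441.9 and 689.2 CPM in the wild-type replicates. Without wild-type replicate 1, 11 factors were called higher, 1 to 4 were called lower across the libraries left out, and 4 were called lower with library size alone as the scaling.

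Annotated NMD-directing transcripts (GENCODE biotype) were carried by 13 of the tested genes. Of these 3 rose and 3 fell (median log2 fold change 0.14), and of the 25 without one 1 rose and 17 fell (-0.84). This split overlapped with role. No germ cell regulator or other germ cell gene carried such a transcript, and most genes that did were recombination genes. Annotation and role therefore cannot be told apart here. Among all coding genes, 33.3% rose and 14.6% fell with such a transcript (median 0.15), and 20.7% rose and 22.3% fell without (0.00). Msh5 had 5 such transcripts and Hfm1 2, the highest numbers in the set, and both rose. Whether single transcripts changed cannot be seen in counts per gene, and the genes were chosen from this contrast, so the split was not tested.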

How the data were processed

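Per the labels' protocols, TRIzol RNA was made into libraries with a TruSeq kit (v2, which keeps no strand information) and sequenced as single reads of 50 nt. The submitters' processing notes name TopHat2 2.0.9 and the build mm10. How reads were counted, on which annotation, and what was done with multiply aligned reads is not given in the sources used here. The authors deposited a read count and an RPKM value for each of 37224 Ensembl genes. Symbols and positions came from GENCODE M21 (GRCm38).

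The main test was edgeR's quasi-likelihood test (version 4.0.16 in R 4.3.3) on genotype, after filterByExpr with a minimum count of 10 and TMM scaling, with Benjamini-Hochberg adjustment over the 20895 genes kept. An SE is |log2 fold change| over the root of the F statistic. Alternatives used DESeq2 1.42.0 (size factors, Wald test), limma 3.58.1 on log2(RPKM + 1) or log2(RPKM + 0.1), library size alone, no count filter, the replicate number as a block, and each library left out. A lone library is taken to vary like the group that still has 2. Simulated counts with known changes were used to test the edgeR script.

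The genes of the set and all lists were chosen with earlier results of these data known. The text names every gene of the set, and from each other list up to 3 called genes of lowest adjusted p (up to 2 of the highest mean level where fewer than 2 passed), with counterparts beside their genes. Of the further meiosis genes 32 of 34 listed symbols matched. A transcript's 50-base stretches were compared with all GENCODE transcripts by exact match on both strands. Some somatic counterparts are counted but not reported here by name.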

Additional observations from a re-analysis of the deposited data

How the results depend on the processing

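The count of genes of the set called lower was 20, between 19 and 21 under the settings that kept all 4 libraries and between 15 and 23 with a library left out, and no gene changed sign with a call under any of the 11 alternatives. The count called higher was less stable: 4, but 1 with limma-trend on log2(RPKM + 0.1), 2 with limma-trend on log2(RPKM + 1), and 2 to 7 with a library left out. Limma-trend also moved the counts called higher over all genes (2643 and 2700 for the pseudocounts 0.1 and 1, against 4285), among recombination genes (1 with 0.1, against 3), other germ cell genes (0 with both, against 1), and further meiosis genes and somatic counterparts (3 each with the pseudocount 1, against 5 each). With the replicate block 2 cohesins were called lower and 5 recombination genes higher, against 1 and 3. The difference between replicates 1 and 2 in wild type correlated at 0.196 over genes with that in Smg6-deficient cells, and with 2 libraries per group and no pairing in the labels they share only a number; the block gave 21 genes of the set lower and 6 higher, adding Rad21l (-0.80), Mei1 (0.67) and Tex15 (0.48). Silencing factors called lower numbered 4 with library size alone and 1 with no count filter, against 2. With each library left out in turn, counts ranged from 2206 to 4883 lower and 2540 to 5435 higher over all genes, 1 to 2 lower and 0 to 1 higher for cohesins, 0 to 2 lower and 2 to 5 higher for recombination genes, 3 to 5 lower for regulators, 0 to 1 higher for other germ cell genes, 3 to 7 higher for further meiosis genes, 2 to 9 lower and 3 to 7 higher for somatic counterparts, and 1 to 4 lower and 6 to 11 higher for silencing factors. The cause of these moves was not tested, other than that a fit without a library has fewer samples. By CPM per kilobase, 9 of the 10 genes highest by RPKM stayed among the 10 highest. In the 250 bases before the start alone, the motif shares of the set were 31.8% and 25.0% and the median CpG ratio 0.67. With 2 libraries a group, low genes such as Rad21l, Meiob and Mei1 were too low for firm statements.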
